A study of Mus musculus with 12 samples.

Results

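The nuclear genes for respiratory complexes II, III, IV and V were examined in oocytes with and without Rnaseh1. They were the rows of the table whose symbol starts with Uqcr, Atp5, Cox4, Cox5, Cox6, Cox7 or Cox8, or is Sdha, Sdhb, Sdhc, Sdhd or Cyc1, without pseudogenes. These rows numbered 48 of 25162 genes, with 4 in complex II, 9 in complex III, 18 in complex IV and 17 in complex V. The study measured polyadenylated RNA of mouse oocytes by Smart-seq2, a full-length cDNA method that does not record the strand. The KO groups carried the oocyte deletion of Rnaseh1 (headed Rnaseh1 oo-/- in the table) and the WT groups the floxed gene (Rnaseh1 fl/fl), each at the oocyte stages labelled NGO, GO and FGO, taken in that order. The labels list 12 samples, 2 for each genotype and stage, with 10 oocytes in each. The table held 6 value columns, 1 for each genotype and stage, and whether a column is a mean, a pool or 1 of the samples is not stated. With 1 column a group the differences have no replicate check, and no SD or p is given. The sources used here do not give the driver of the Cre recombinase or the age of the animals. With oocytes pooled, a change in some oocytes and a change in all of them cannot be told apart.

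Complex II oxidises succinate and passes the electrons to ubiquinone. Complex III passes them on to cytochrome c, complex IV to oxygen, and complex V, the ATP synthase, uses the proton gradient that complexes III and IV help to build. Complexes III, IV and V also contain subunits encoded by mitochondrial DNA, of which the table held 0 rows, whereas complex II is encoded by nuclear genes alone. Oocytes accumulate very many mitochondria as they grow and rely on oxidative phosphorylation for most of their ATP. RNase H1 cleaves RNA that is paired with DNA and is needed for the replication of mitochondrial DNA.

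Values are FPKM, that is, fragments scaled by transcript length and library size, further adjusted by the authors to added ERCC RNA. Differences are KO minus WT on log2(FPKM + 1), and a gene is called at a 2-fold difference or more (1 on this scale). This scale understates the change of genes with low values. Read depth is unknown. Rnaseh1 itself stood at 0.931, 3.10 and 8.02 FPKM in KO at NGO, GO and FGO, against 8.61, 27.8 and 29.1 FPKM in WT. All 15 oocyte markers checked were at 1 FPKM or more in every column except Sohlh1, which was listed at 0 in WT FGO. The 16 granulosa cell markers summed to 6.85, 14.5 and 79.9 FPKM in KO at NGO, GO and FGO, against 3.29, 18.0 and 36.4 FPKM in WT, which was at most 0.0110% of a column. The defining granulosa genes Amh and Foxl2 were at most 0.457 FPKM in every column. Others on the list had higher values in KO FGO, among them Inha at 9.32 FPKM in KO and 1.17 FPKM in WT, and Gja1 at 6.96 FPKM in KO and 0.965 FPKM in WT. Of the 6 granulosa markers compared, Inha and Gja1 were called higher at FGO, also after rescaling (1.44 and 1.23). Over all genes compared, 25.8% were called higher there as deposited and 1.68% after rescaling. Esr2 had the highest value of the list, at 37.3 FPKM in KO FGO and 21.3 FPKM in WT FGO. At FGO 8 of the 16 were at 1 FPKM or more in KO and 5 in WT. The part of these markers in the results was not tested. The median of the 10110 genes compared (those averaging 1 FPKM or more) differed by -0.11 at NGO, -0.09 at GO and 0.72 at FGO. Rescaled differences, in which the typical gene is brought to the same level in each column, are given beside the deposited ones because of the last of these values.

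Of the 48 genes, 44 had a mean of at least 1 FPKM and were compared. The 4 that did not are tissue isoforms of complex IV subunits. Cox7a1 and Cox8b, the heart and muscle isoforms of subunits 7a and 8, and Cox7b2, an isoform of subunit 7b known from human testis, were listed at 0 in every column. Cox8c, an isoform of subunit 8 known from human testis, reached 1.65 FPKM in KO FGO and 1.20 FPKM in WT FGO. The most abundant gene by mean was Cox7a2l, which encodes a factor that joins complexes III and IV into supercomplexes. It stood at 142, 290.3 and 588 FPKM in KO at NGO, GO and FGO, against 184, 427 and 455 FPKM in WT. The lowest of the genes compared was Atp5d, the delta subunit of the ATP synthase central stalk, at 1.20, 1.64 and 2.32 FPKM in KO and 0.867, 2.01 and 1.63 FPKM in WT.

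**Figure D1:**
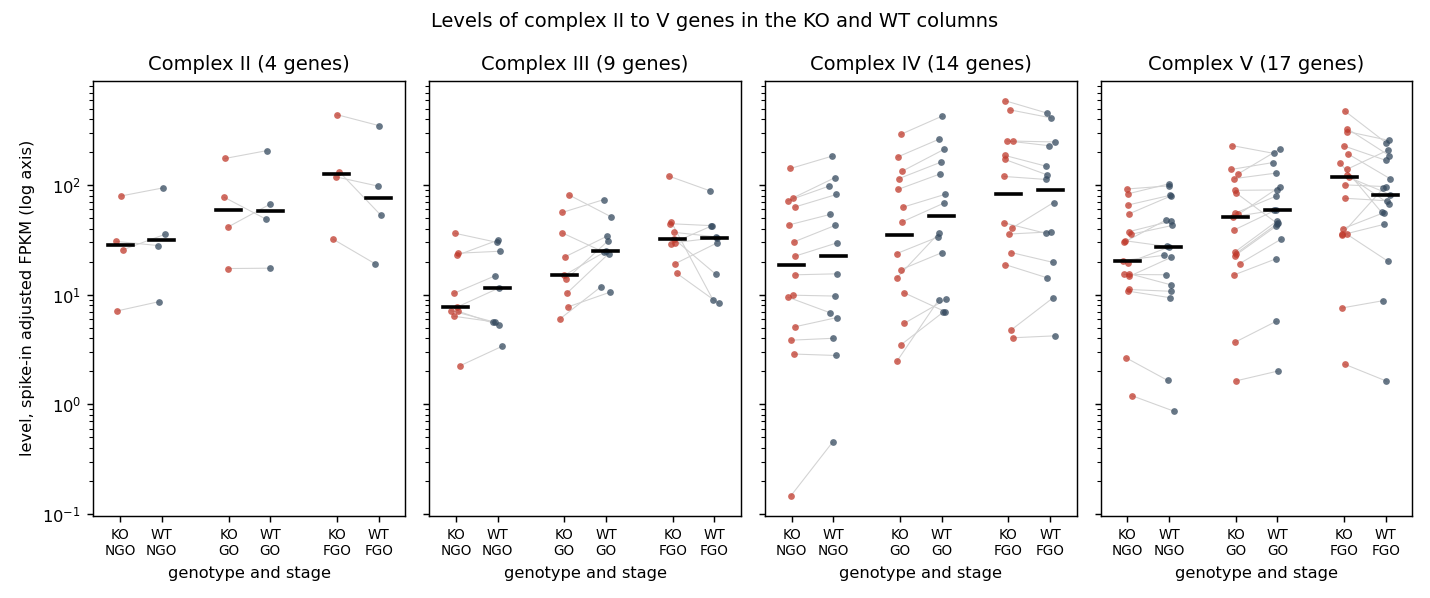
Level of each gene in spike-in adjusted FPKM (log axis) in the KO (red) and WT (blue) column of each stage, by complex. Points are the 44 genes compared, grey lines join a gene's KO and WT values, and black bars are medians over genes. Levels within a complex spread far more widely than the KO and WT values of a gene differ, and most genes are higher at GO than at NGO in both genotypes.

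At NGO none of the 44 genes differed 2-fold in either direction, where 0.0297% of all genes compared were higher and 0.326% lower in KO. The values were higher in KO for 15 genes and lower for 29, where 2997 of all 10110 genes compared were higher and 7090 lower. The median difference was -0.24 as deposited and -0.09 after rescaling, which also gave 0 calls (0.129% of all genes higher and 0.356% lower). At GO 38 of the 44 had lower values in KO, as did 5896 of all 10110 genes. The median difference was -0.52 (-0.44 after rescaling), 4 genes were called lower and 0 higher, and 2.03% of all genes were called lower and 0.95% higher. The 4 were Cox6b1, Cox7c, Uqcrh and Uqcr11, and the same genes were called lower after rescaling, where the shares over all genes were 1.28% lower and 1.05% higher. At FGO the deposited values were higher in KO for 32 of the 44, where 9649 of all 10110 genes were higher. The median difference of 0.28 lay under the 0.72 of all genes and became -0.48 after rescaling. As deposited, 4 genes (Uqcrc1, Atp5a1, Sdha and Cyc1) were called higher and 1 (Atp5k) lower, against 25.8% and 0.158% of all genes. After rescaling 1 was called higher (Uqcrc1) and 8 lower, against 1.68% and 0.94% of all genes. The direction of the group at FGO thus depends on whether the spike-in scale is kept.

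**Figure D2:**
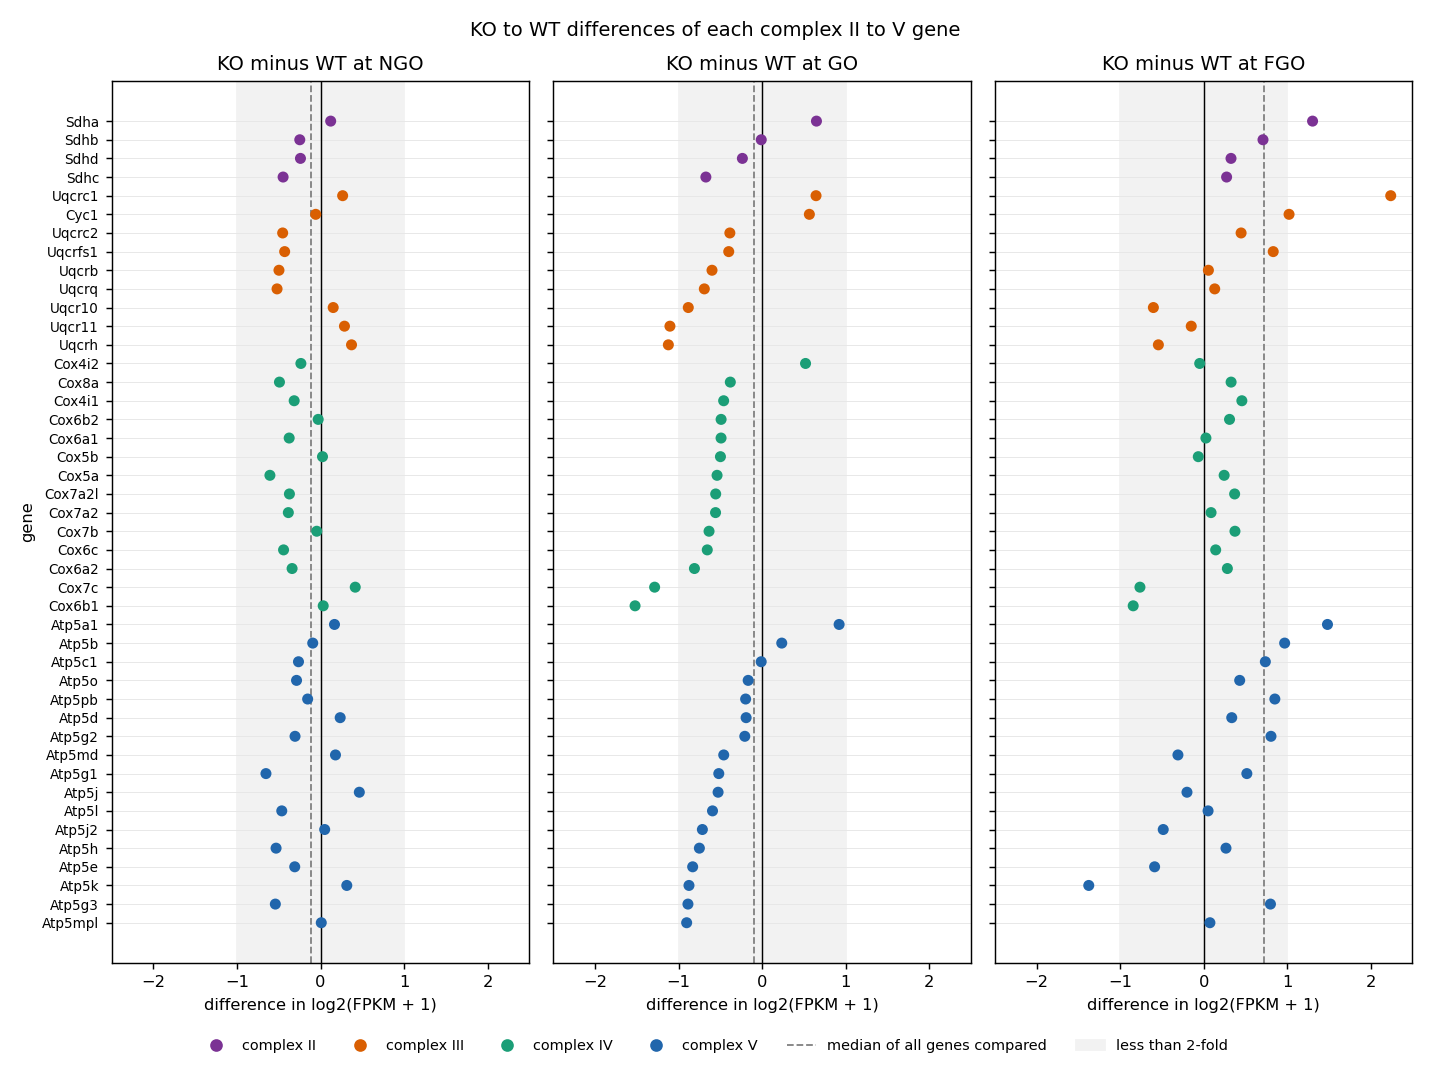
KO minus WT difference in log2(FPKM + 1), as deposited, of each of the 44 genes at the 3 stages, coloured by complex and sorted within a complex by the rescaled difference at GO. The dashed line is the median of all genes compared (-0.11, -0.09 and 0.72) and the grey band holds differences under 2-fold. At GO and FGO most genes lie left of the dashed line, while Sdha, Uqcrc1, Cyc1, Atp5a1, Atp5b and, narrowly, Atp5c1 lie right of it at both stages.

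In complex II the catalytic flavoprotein and the membrane anchors stood on opposite sides of the median gene. Sdha, the flavoprotein that oxidises succinate, was at 30.7, 77.3 and 132 FPKM in KO at NGO, GO and FGO, against 28.1, 48.8 and 53.0 FPKM in WT. Its value was thus above WT at each stage, and its difference of 1.30 at FGO was 0.52 after rescaling. Sdhb, the iron-sulphur subunit, was at 7.13, 17.3 and 32.1 FPKM in KO and 8.65, 17.5 and 19.2 FPKM in WT, and its rescaled differences stayed between -0.09 and 0.06. Sdhc, a membrane anchor that helps to bind ubiquinone, was at 25.8, 41.6 and 119 FPKM in KO and 35.5, 67.0 and 98.2 FPKM in WT. The other anchor, Sdhd, was the most abundant of the 4, at 79.6, 175 and 439 FPKM in KO and 94.2, 206 and 349.6 FPKM in WT. Rescaled differences at GO were -0.60 for Sdhc and -0.16 for Sdhd, and at FGO -0.50 and -0.46.

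Complex III held the gene with the largest difference at FGO as deposited, whereas after rescaling Atp5k of complex V (-2.12) and Cox7c of complex IV (-1.52) differed more. Uqcrc1, a large core protein of the matrix arm, was at 36.3, 81.4 and 46.0 FPKM in KO at NGO, GO and FGO, against 30.1, 51.6 and 8.94 FPKM in WT. The FGO value was 0.565 of the GO value in KO and 0.173 of it in WT. The KO to WT ratio at FGO was 5.14, a difference of 2.24 (1.44 after rescaling). Cyc1, the cytochrome c1 subunit that hands electrons to cytochrome c, was at 23.9, 36.6 and 32.2 FPKM in KO and 24.9, 24.4 and 15.3 FPKM in WT, with a difference of 1.02 at FGO that was 0.26 after rescaling. The partner core protein Uqcrc2 did not follow Uqcrc1, with 22.8, 56.3 and 121 FPKM in KO and 31.6, 73.9 and 88.5 FPKM in WT. Uqcrfs1, the Rieske iron-sulphur protein, was at 2.25, 7.75 and 15.6 FPKM in KO and 3.38, 10.5 and 8.34 FPKM in WT.

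The small subunits of complex III lay on the other side. Uqcrh, the hinge protein that docks cytochrome c, was at 7.09, 10.3 and 29.1 FPKM in KO and 5.26, 23.7 and 42.8 FPKM in WT. It was called lower at GO (-1.12) and, after rescaling, also at FGO (-1.28). Uqcr11 was called lower at GO, where it stood at 13.9 FPKM in KO and 31.0 FPKM in WT (-1.10). Uqcr10 was at 6.36, 5.97 and 19.2 FPKM in KO and 5.63, 11.9 and 29.6 FPKM in WT, and was called lower at FGO after rescaling (-1.32). These 3 genes had higher values in KO at NGO and lower values in KO at GO and FGO. Uqcrb and Uqcrq, the remaining small subunits, had rescaled differences of -0.52 and -0.61 at GO and -0.70 and -0.62 at FGO. As deposited, their values were lower in KO at NGO and GO. At FGO they were higher, at 44.5 FPKM in KO and 42.7 FPKM in WT for Uqcrb, and 37.1 FPKM in KO and 33.8 FPKM in WT for Uqcrq.

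The promoters of members at both ends of this range are shown to let the upstream sequence be compared. Each is the 250 bases before the annotated start, 5′ to 3′ on the gene's strand, from RefSeq on GRCm38.p6. Capitals mark CCGGAAG, bound by ETS factors such as GABPA, and TGCGCA, the core of NRF1 sites, on either strand. Both factors are known regulators of respiratory chain genes. Uqcrc1 (chr9:108936398-108936647, plus strand) and Sdha (chr13:74350241-74350490, minus strand) had higher values in KO at each stage. Cox6b1 (chr7:30626115-30626364, minus strand), Cox7c (chr13:86046796-86047045, minus strand) and Uqcrh (chr4:116075071-116075320, minus strand) were called lower at GO.
Uqcrc1: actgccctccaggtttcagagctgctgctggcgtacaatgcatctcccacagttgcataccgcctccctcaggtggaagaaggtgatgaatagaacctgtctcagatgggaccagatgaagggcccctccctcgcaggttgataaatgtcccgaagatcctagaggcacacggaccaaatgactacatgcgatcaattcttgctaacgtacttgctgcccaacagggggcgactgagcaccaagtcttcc
Sdha: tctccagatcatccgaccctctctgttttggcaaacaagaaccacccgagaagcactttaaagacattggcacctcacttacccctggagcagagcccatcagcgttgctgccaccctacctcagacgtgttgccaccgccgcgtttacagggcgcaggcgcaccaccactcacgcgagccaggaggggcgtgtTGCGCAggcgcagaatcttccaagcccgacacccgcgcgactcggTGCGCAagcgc
Cox6b1: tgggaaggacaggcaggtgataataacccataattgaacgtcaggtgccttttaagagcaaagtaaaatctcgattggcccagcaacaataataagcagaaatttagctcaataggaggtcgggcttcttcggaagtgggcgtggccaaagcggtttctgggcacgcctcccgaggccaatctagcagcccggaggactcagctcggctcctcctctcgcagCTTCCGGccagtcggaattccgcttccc
Cox7c: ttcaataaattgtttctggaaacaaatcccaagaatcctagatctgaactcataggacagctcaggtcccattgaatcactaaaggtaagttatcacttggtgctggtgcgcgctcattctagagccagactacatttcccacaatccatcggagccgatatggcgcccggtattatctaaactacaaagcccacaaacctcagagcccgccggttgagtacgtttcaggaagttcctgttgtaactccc
Uqcrh: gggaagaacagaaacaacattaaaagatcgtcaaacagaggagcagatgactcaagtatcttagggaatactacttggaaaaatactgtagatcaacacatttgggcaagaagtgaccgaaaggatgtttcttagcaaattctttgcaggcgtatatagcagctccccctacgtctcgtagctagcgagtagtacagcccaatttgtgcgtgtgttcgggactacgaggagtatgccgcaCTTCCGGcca
Sdha held TGCGCA, Cox6b1 and Uqcrh held CCGGAAG, and Uqcrc1 and Cox7c held none of the motifs searched. A promoter was given for 33 of the 44 genes. CCGGAAG was in 9 of these 33 (27.3%), against 17.1% of the 8136 other genes compared that had a promoter and 6.91% of all 32851 promoter windows. TGCGCA was in 7 (21.2%), against 14.7% and 6.43%. ATGGCGG, the core of YY1 sites, was in 1 (3.03%), against 4.88% and 2.21%. A gene counted as holding a motif if any of its windows did, whereas the share of all windows counts single windows, so these shares are unlike measures. The motifs were searched on both strands, and none of them contains another. Among the 4 genes called lower at GO, Uqcr11 also held CCGGAAG. Of the genes called lower at FGO after rescaling, Cox6b1, Uqcrh and Atp5e held CCGGAAG. The others, Cox7c, Uqcr10, Atp5j2, Atp5k and Atp5md, held none of the motifs. Whether a motif went with the direction of the difference was not tested.

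In complex IV 13 of the 14 genes compared had lower values in KO at GO, and after rescaling all 14 were below 0 at FGO. Of all 10110 genes, 5896 were lower at GO as deposited and 4839 at FGO after rescaling. Cox4i1, the main isoform of subunit 4, was at 43.3, 91.3 and 171 FPKM in KO at NGO, GO and FGO, against 54.1, 126 and 124 FPKM in WT. Cox5a was at 76.5, 181 and 487 FPKM in KO and 117, 263 and 411 FPKM in WT. Cox5b, the zinc-binding subunit, was at 9.90, 16.9 and 35.8 FPKM in KO and 9.72, 24.3 and 37.5 FPKM in WT. All 3 thus followed the group, with rescaled differences of -0.38 to -0.46 at GO and -0.32 to -0.82 at FGO. Cox6b1, the widely expressed isoform of subunit 6b, was lowest relative to WT at GO, with 2.47 FPKM in KO and 8.95 FPKM in WT (a ratio of 0.276, difference -1.52). At FGO it was at 4.77 FPKM in KO and 9.36 FPKM in WT (-0.84, and -1.39 after rescaling), and at NGO it was at 2.87 FPKM in KO and 2.79 FPKM in WT. Cox7c was at 9.49, 14.3 and 40.5 FPKM in KO and 6.86, 36.3 and 69.4 FPKM in WT. Its difference was thus 0.42 at NGO, -1.29 at GO and -0.76 at FGO (-1.52 after rescaling). Cox8a, at 30.3, 63.1 and 186.9 FPKM in KO and 42.9, 82.5 and 148.6 FPKM in WT, had the smallest rescaled shortfall of the complex at GO, at -0.30. Cox6a1, Cox6c, Cox7a2, Cox7a2l and Cox7b had rescaled differences between -0.41 and -0.58 at GO and between -0.35 and -0.76 at FGO.

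Subunits 4, 6a and 6b are each encoded by a widely expressed and a tissue-restricted gene, and the share of each in their summed FPKM does not depend on the scale of a column. Cox6b2, known as the testis isoform of subunit 6b, was the main one in these oocytes. It made up 84.1%, 90.6% and 90.5% of the pair in KO at NGO, GO and FGO, against 84.8%, 79.0% and 79.5% in WT. Its own level was 15.2, 23.7 and 45.3 FPKM in KO and 15.5, 33.8 and 36.4 FPKM in WT. The higher share in KO at GO thus went with lower values of both genes, Cox6b1 more so. At FGO it went with lower Cox6b1 values and, as deposited, higher Cox6b2 values (a difference of 0.31, and -0.45 after rescaling). Cox6a2, the heart and muscle isoform of subunit 6a, was at 0.146, 3.50 and 24.3 FPKM in KO and 0.451, 6.88 and 19.7 FPKM in WT. Its share was 0.231%, 2.96% and 8.77% in KO and 0.546%, 4.08% and 7.38% in WT. The share was thus larger at each later stage in both genotypes. Cox4i2, the isoform of subunit 4 known from lung and low oxygen, was at 5.10, 10.5 and 4.05 FPKM in KO and 6.18, 6.99 and 4.21 FPKM in WT. Of the 14 complex IV genes compared it alone had a higher value in KO at GO. Cox8c, which did not reach a mean of 1 FPKM, was at 0.556 FPKM in KO GO and 0.314 FPKM in WT GO. The share of Cox4i2 at GO was 10.3% in KO and 5.26% in WT.

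**Figure D3:**
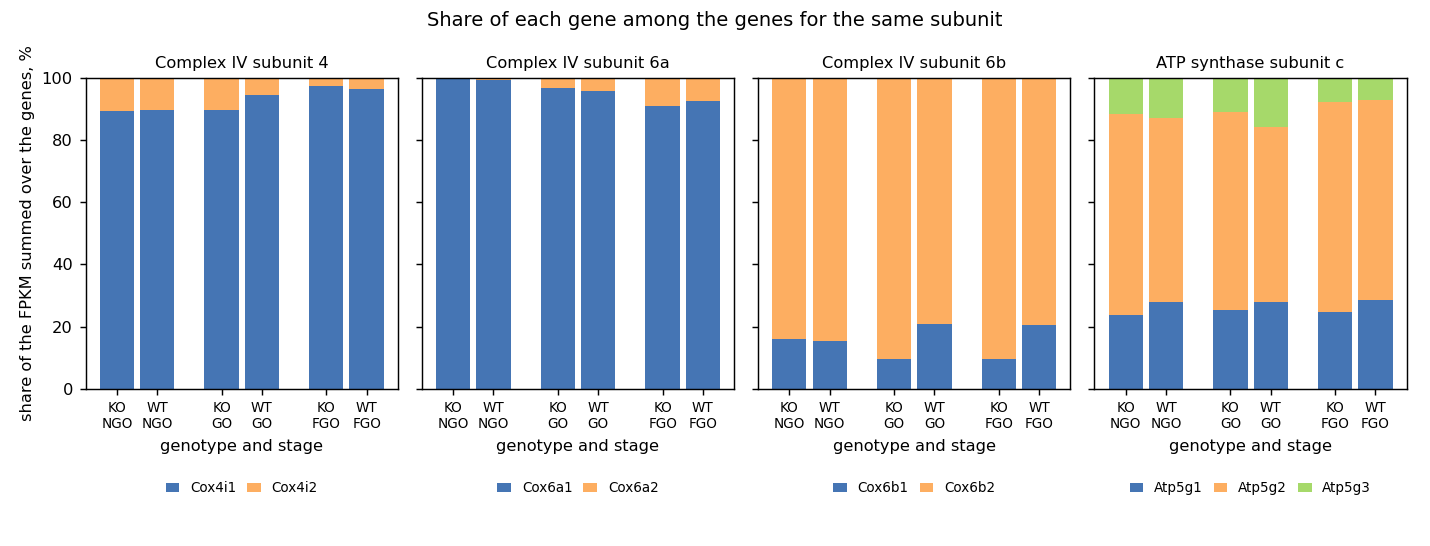
Share (%) of each gene in the FPKM summed over the genes for the same subunit, for complex IV subunits 4, 6a and 6b and for the c subunit of ATP synthase, by genotype and stage. Cox6b2 makes up 90.6% of its pair in KO GO and 79.0% in WT GO, and the share of Cox6a2 reaches 8.77% in KO FGO and 7.38% in WT FGO.

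In complex V the F1 head differed from the small membrane subunits. Atp5a1, the alpha subunit, was at 31.1, 85.5 and 159 FPKM in KO at NGO, GO and FGO, against 27.6, 44.6 and 56.4 FPKM in WT. Its difference was 0.92 at GO, just under the 2-fold line, and 1.48 at FGO (0.99 and 0.70 after rescaling). Atp5b, the catalytic beta subunit, was at 92.3, 229.8 and 477 FPKM in KO and 98.5, 195 and 243 FPKM in WT, with rescaled differences of 0.31 at GO and 0.18 at FGO. Atp5c1, the gamma subunit that turns inside the head, was at 35.5, 89.7 and 192 FPKM in KO and 42.9, 90.4 and 115 FPKM in WT, with rescaled differences between -0.09 and 0.06. The small subunits of the central stalk differed from each other. Atp5d, whose levels are given above, had rescaled differences of 0.44, -0.13 and -0.15 at NGO, GO and FGO. Atp5e, the epsilon subunit, was at 37.7, 54.1 and 139 FPKM in KO and 47.0, 97.1 and 209 FPKM in WT. Its rescaled differences were -0.13, -0.75 and -1.37, so that it was called lower at FGO on that scale.

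The peripheral stalk holds the head still while the ring turns. Of its genes, Atp5o (the OSCP subunit) and Atp5pb (subunit b) had rescaled differences of -0.09 and -0.12 at GO and -0.35 and 0.07 at FGO. Atp5h (subunit d) was at 54.7, 127 and 308 FPKM in KO and 79.6, 214 and 256 FPKM in WT, and Atp5j (subunit F6) at 2.66, 3.67 and 7.56 FPKM in KO and 1.65, 5.72 and 8.83 FPKM in WT. The rescaled differences of Atp5h and Atp5j were -0.67 and -0.44 at GO and -0.52 and -0.84 at FGO. Atp5k, the e subunit that lies where ATP synthases pair into dimers, had the lowest rescaled value of all 44 genes at FGO. It was at 15.6, 22.6 and 35.6 FPKM in KO and 12.3, 42.3 and 93.9 FPKM in WT, a difference of 0.31 at NGO, -0.87 at GO and -1.37 at FGO (-2.12 after rescaling). Atp5j2 (subunit f) and Atp5md (DAPIT) were also called lower at FGO after rescaling, at -1.24 and -1.06. Atp5l (subunit g) and Atp5mpl, a small proteolipid, stood at -0.72 and -0.70. The genes for the proton-carrying c ring encode the same mature protein. Atp5g2 was the main one, at 83.2, 139 and 327 FPKM in KO and 103, 160.5 and 186 FPKM in WT. Atp5g1 was at 30.3, 55.2 and 118 FPKM in KO and 48.2, 79.5 and 82.1 FPKM in WT. Atp5g3 was at 14.7, 23.7 and 35.8 FPKM in KO and 21.9, 44.8 and 20.2 FPKM in WT. Its FGO value was 1.51 times the GO value in KO and 0.450 times in WT. The share of Atp5g3 among the c subunit genes was 10.9% in KO and 15.7% in WT at GO, and 7.46% in KO and 6.98% in WT at FGO.

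Across the 44 genes the rescaled KO to WT difference at GO and FGO ran with the length of the coding region. This comparison was not among the planned results. The longest coding region per gene (GENCODE M21) was between 156 nt (Atp5e) and 1992 nt (Sdha). Spearman's rho between coding length and rescaled difference was 0.78 at GO and 0.81 at FGO, and -0.12 at NGO, over 44 genes whose values share the same libraries and scale. Over the 9592 other genes with an annotated coding region rho was 0.21 at GO, 0.09 at FGO and 0.28 at NGO. Of these others 8344 were over 600 nt, against 11 of the 44 members. The coefficients thus cover unlike ranges of length and do not show which group varies more with length. The 16 genes with at most 300 nt had a median rescaled difference of -0.73 at GO and -0.98 at FGO, and all 16 were below 0 at both stages. The 160 other genes of that length had medians of -0.37 and -0.40, and 83.8% and 79.4% of them were below 0. All 4 genes called lower at GO and all 8 called lower at FGO after rescaling were among these 16. Over all genes compared, 1.28% were called lower at GO and 0.94% at FGO after rescaling. How many of the 160 other genes of that length were called lower was not counted. The 17 genes of over 300 and up to 600 nt had medians of -0.44 at GO and -0.50 at FGO, against -0.26 and -0.18 for the 1088 others. The 11 genes over 600 nt had medians of 0.06 and 0.10, against 0.02 and 0.06 for the 8344 others. At NGO the medians of the members by rising length were 0.19, -0.19 and 0.02, against -0.15, -0.16 and 0.03 for the others. For complex I subunits rho was 0.31 at GO and 0.62 at FGO over 38 genes. How far FPKM of such short transcripts depend on fragment size or library quality was not tested.

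**Figure D4:**
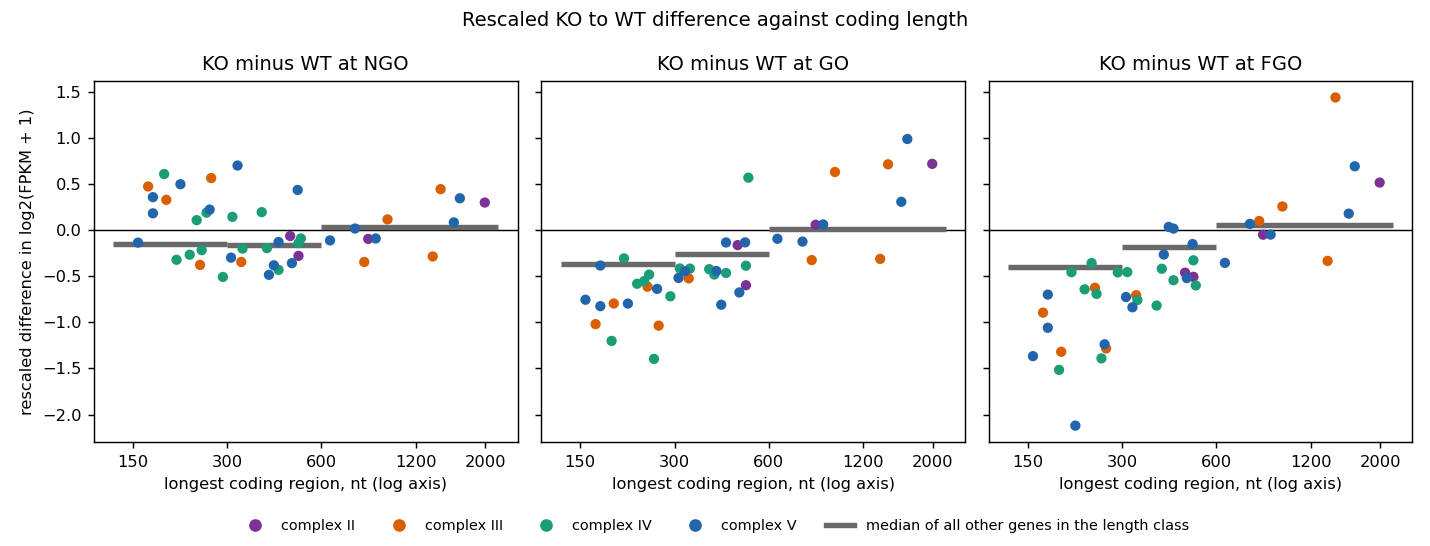
Rescaled KO minus WT difference in log2(FPKM + 1) of the 44 genes against the length of the longest coding region in nt (log axis), at the 3 stages and coloured by complex. Grey bars are the medians of all other genes in the classes up to 300, over 300 to 600 and over 600 nt. At GO and FGO all 16 genes of up to 300 nt lie below 0, whereas at NGO they lie on both sides.

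The differences at GO and at FGO come from separate columns and ran together, with rho 0.75 over the 44 genes and 0.59 over the 9592 other genes. After rescaling 32 of the 44 were below 0 at both stages and 5 above 0 at both (Sdha, Uqcrc1, Cyc1, Atp5a1 and Atp5b). The differences at NGO did not run with those at GO (rho 0.03 over the 44 genes, 0.47 over the others). Between NGO and FGO rho was -0.23 over the 44 genes and 0.32 over the others.

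The step from NGO to GO came with higher levels in both genotypes. In KO, 42 of the 44 genes had higher values at GO, as did 9903 of all 10110 genes. Of the 44, 18 were at least 2-fold higher, with a median difference of 0.87, where 57.6% of all genes were called higher, 0.089% lower, and their median was 1.10. In WT, 43 of the 44 had higher values, as did 9791 of all genes. Of the 44, 29 were at least 2-fold higher, with a median of 1.09, where 54.8% of all genes were called higher, 0.129% lower, and their median was 1.06. The members without a higher value at GO were Uqcr10 and Cox6b1 in KO and Cyc1 in WT. As deposited, 31 of the 44 lay below the median of all genes in KO and 20 in WT. After rescaling the median step was -0.49 in KO and -0.18 in WT. Rescaled calls were 1 higher and 2 lower in KO, where 5.37% and 2.59% of all genes were called, and 3 higher and 2 lower in WT, where 6.06% and 3.27% were. As deposited, the largest steps in WT were those of Cox6a2 (2.44), Uqcr11 (2.26), Cox7c (2.25) and Uqcrh (1.98), which were 1.97, 0.87, 0.54 and 0.49 in KO. These steps share columns with the KO to WT differences at GO above.

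From GO to FGO 27 of the 44 genes were at least 2-fold higher in KO and 1 lower, with a median of 1.07, where 39.0% of all genes were called higher, 0.514% lower, and the median was 0.84. In WT 5 were at least 2-fold higher and 2 lower, with a median of 0.33, where 6.5% of all genes were called higher, 9.22% lower, and the median was 0.08. Rescaled medians were 0.20 in KO and 0.31 in WT, so that the group lay above the median gene in both genotypes. Rescaled calls were 1 higher and 3 lower in KO, where 6.42% and 3.66% of all genes were called, and 4 higher and 2 lower in WT, where 5.78% and 8.33% were. The 5 higher in WT were Cox6a2 (1.40), Uqcr10 (1.25), Atp5k (1.13), Atp5e (1.10) and Atp5md (1.01). The lower ones were Uqcrc1 (-2.40) and Atp5g3 (-1.11) in WT and Cox4i2 (-1.18) in KO.

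As a share of all FPKM in a column, which needs no spike-in, the 48 genes made up 0.989%, 0.746% and 0.786% in KO at NGO, GO and FGO, against 1.02%, 0.889% and 0.981% in WT. The KO share was thus 0.967, 0.840 and 0.802 times the WT share. Complex IV had the lowest ratios of shares at GO and FGO, both 0.735. Complex II had 0.991 at GO and 0.878 at FGO, complex III 0.943 and 0.781, and complex V 0.895 and 0.854. Without Cox7a2l the ratios for all members were 0.855 at GO and 0.800 at FGO. Complex I subunits (40 genes) had ratios of 0.761 at GO and 0.763 at FGO. Their median rescaled differences (39 compared) were -0.39 at GO and -0.53 at FGO, beside -0.44 and -0.48 for complexes II to V, and no difference between the groups was tested. The summed FPKM of all genes was 132093, 355744 and 729690 in KO and 156837, 384421 and 460906 in WT.

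**Figure D5:**
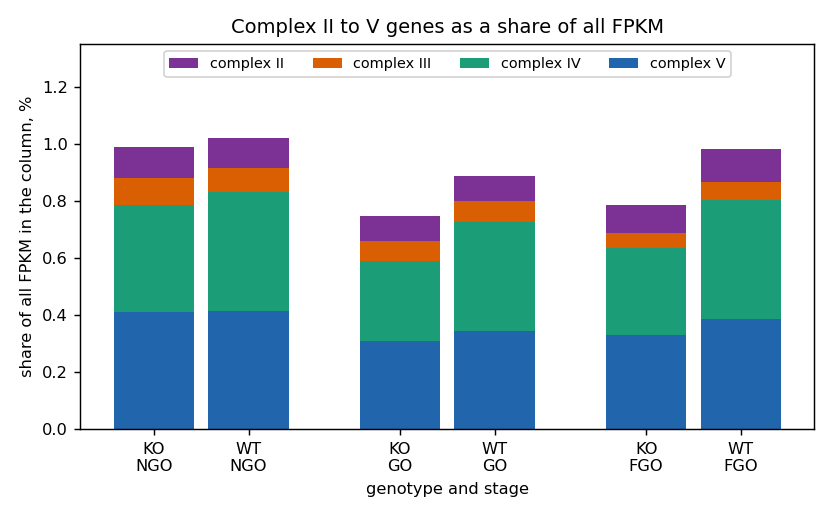
Summed FPKM of the genes of each complex as a share (%) of all FPKM in the column, for KO and WT at each stage. The stacked share is 0.746% in KO GO and 0.889% in WT GO, and 0.786% in KO FGO and 0.981% in WT FGO.

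Genes that build or serve the complexes were read from separate lists. Of 39 genes listed as assembly factors of complexes II to V, among them the ATP synthase inhibitor Atpif1, 34 were compared. None of them was called at NGO, 1 was called lower at GO, and at FGO 8 were called higher and 2 lower as deposited, or 0 and 3 after rescaling. The shares of all genes at FGO were 25.8% higher and 0.158% lower as deposited, and 1.68% and 0.94% after rescaling, and at GO 2.03% were called lower as deposited. Their median rescaled differences were -0.11, -0.28 and -0.10 at NGO, GO and FGO. Cox17, the chaperone that hands copper to complex IV, was at 18.5, 39.1 and 136 FPKM in KO and 28.7, 86.1 and 171 FPKM in WT, and was called lower at GO (-1.12). The others called lower at FGO were Uqcc2, a complex III assembly factor, at 2.73 FPKM in KO and 6.52 FPKM in WT, and Cox20, a complex IV assembly factor, at 0.532 FPKM in KO and 2.40 FPKM in WT. The largest difference among those called higher at FGO was that of Cox11, another copper-delivery factor, at 5.71 FPKM in KO and 1.12 FPKM in WT. Its difference was 1.66 as deposited and 0.93 after rescaling, where it was not called. Cytochrome c, which links complexes III and IV, has a somatic gene, Cycs, and a testis gene, Cyct. Cyct was at 2.58, 6.22 and 21.9 FPKM in KO and 3.45, 15.3 and 18.5 FPKM in WT, and was called lower at GO (-1.18). Cycs was at 1.08, 3.84 and 10.7 FPKM in KO and 1.30, 5.77 and 8.22 FPKM in WT. Of 10 nuclear regulators of respiration genes, 6 were compared and 0 were called in the KO to WT comparisons as deposited. Over all genes, 0.0297% were called higher and 0.326% lower at NGO, 0.95% and 2.03% at GO, and 25.8% and 0.158% at FGO. The median difference at FGO was 0.72 for the 6 regulators and for all genes. Nrf1 was at 4.33, 18.2 and 45.9 FPKM in KO and 5.68, 22.8 and 23.6 FPKM in WT. Ppargc1a, a coactivator of mitochondrial gene expression in muscle and brown fat, stayed at or under 0.0798 FPKM in every column.

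Some values are uncertain because reads can be shared. Of the 44 genes, 8 had a transcript copy from another gene that matched 95% or more of the bases along 50% or more of its length, mostly processed pseudogenes. These were Atp5g1, Atp5g2, Atp5h, Atp5l, Atp5o, Atp5pb, Cox7c and Uqcrb. The copy of Atp5o is Donson, with which it shares exons on the same strand. Exons overlapped another gene on the opposite strand for Atp5a1, Atp5j, Atp5l, Atp5md, Atp5o, Atp5pb, Cox5a, Cox6a2, Uqcrb and Uqcrc2. The partner of Atp5j is Gabpa, the ETS factor named above, at 2.42 FPKM in KO and 2.08 FPKM in WT at GO.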

How the data were processed

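Polyadenylated RNA was sequenced from KO and WT oocytes at 3 stages. Per the series' design text and the labels' protocols, 100 pg of ERCC RNA was added to each sample of 10 oocytes, and libraries from 500 pg of cDNA were read as 150 bp pairs. Per the submitters' processing notes, the tools were Cufflinks 2.2.1, HISAT2 2.2.1 and Trim Galore 0.6.7, with the mm10 build. The deposited unit is FPKM after a spike-in adjustment by the authors. The sources used here do not give its formula, the annotation, or how 2 samples became 1 column. Depth is unknown, so no counting error can be given.

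The table held 25912 lines. Lines with error marks (2) were left out, and 333 symbols on several lines were each represented by their highest line, leaving 25162 genes. None of the 48 members was on several lines. The 10110 genes averaging 1 FPKM or more were compared on log2(FPKM + 1), and differences of at least 1 were called. For rescaling, the genes' geometric means over the columns served as a standard, and the median ratio of a column to that standard was its divisor, namely 0.453, 1.22 and 2.26 for KO and 0.514, 1.29 and 1.31 for WT at NGO, GO and FGO. Members, lists and the naming rule (defining subunits, called genes, extremes per complex and isoform pairs) were chosen with earlier results of these data known. The theca and stroma markers summed to at most 5.56 FPKM in a column and the immune, endothelial and blood markers to at most 17.2 FPKM. Lengths were the longest coding region in GENCODE M21, and promoters came from RefSeq on GRCm38.p6. Transcript copies were searched with blastn. The rescaling and the 2-fold calls were checked on simulated data in which most genes were unchanged. The other steps were not checked in this way. Python 3.11.15, numpy 2.4.6, pandas 2.3.3 and scipy 1.17.1 were used.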

Additional observations from a re-analysis of the deposited data

Results flagged for a closer look

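The median KO to WT difference had opposite signs at GO and at FGO as deposited, for all members and for each complex. It was -0.52 at GO and 0.28 at FGO over the 44 genes. For complex II it was -0.12 and 0.52, for complex III -0.60 and 0.13, for complex IV -0.55 and 0.20, and for complex V -0.52 and 0.34. With 1 column per group the difference between stages was not tested. The median of all genes was -0.09 at GO and 0.72 at FGO, and after rescaling the members' medians were -0.44 and -0.48.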

How the results depend on the processing

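No paired analysis was possible because the table has 1 column per genotype and stage and carries no replicate numbers. For the same reason leaving out a replicate, a replicate block and limma were not run. The median of the members moved with the scale of the columns. In KO against WT it was -0.24 at NGO as deposited, -0.0875 with median-ratio scaling and -0.0249 with equal column totals. At GO it was -0.52 as deposited and -0.42 with equal totals, and at FGO it turned over, at 0.28 as deposited, -0.48 with median-ratio scaling and -0.36 with equal totals. The step from NGO to GO turned over too, in KO at 0.87 as deposited, -0.49 and -0.49 under these scalings, and in WT at 1.09, -0.18 and -0.14. The step from GO to FGO was 1.07, 0.204 and 0.0588 in KO, and in WT 0.33 as deposited and 0.0768 with equal totals. Called members at FGO were 4 higher and 1 lower as deposited, 1 and 8 with median-ratio scaling, and 1 and 7 with equal totals. For NGO to GO the members called higher were 18 in KO and 29 in WT as deposited, and 1 and 3 under both scalings, with 2 and 2 lower in place of 0. For GO to FGO in KO they were 27 as deposited and 1 under both scalings, with 3 lower in place of 1, and in WT 5 as deposited and 1 with equal totals. With equal totals 1 member was called higher at GO in place of 0, and Uqcr11 there fell just short of the line (-0.996). A pseudocount of 0.1 gave 1 call lower at NGO in place of 0. Dropping the filter, raising it to 5 FPKM, or leaving out symbols on several lines or genes listed at 0 moved no median or call count past its limit for a change. Neither the comparison with length nor its alternatives were among the planned results. With mRNA length in place of coding length rho was 0.65 at GO in place of 0.78, and 0.77 at FGO in place of 0.81. The other alternatives left rho at GO and FGO close to the values for coding length. The mRNA length is a median over annotated transcripts, which for Atp5g1 run between 596 and 4715 nt.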
